A study of Mus musculus with 4 samples.

Results

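The genes described here build, cross-link and cut the extracellular matrix: lysyl oxidases and a transglutaminase, collagens, basement membrane proteins, matrix glycoproteins, hyaluronidases, matrix metalloproteinases and their inhibitors, ADAM proteases, and the plasminogen system. They were taken from a list of 47 gene symbols and matched by symbol to the gene names in the tables, which together list 18526 genes. Of the 47, 36 were listed, 34 in both tables, and 33 had enough reads to be tested. Microglia, the resident macrophages of the brain, were sorted by fluorescence from the brains of C57BL/6 mice at embryonic day 14, and their total RNA was sequenced. The design text names the tissue as telencephalic and the protocol as cortex.

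The knockout group had the genotype Arid1acKO, a conditional deletion of Arid1a, whose product is the large ARID-domain subunit of the BAF complex, an ATP-driven remodeller of chromatin. The control group had the genotype Arid1afl/fl, in which the gene is floxed. The labels name neither the Cre driver nor the cells in which it acts, and do not say whether a sample was 1 embryo or a pool. Values are given for 1 knockout library (replicate 2) and 2 controls (replicates 5 and 6, called control 5 and control 6); knockout replicate 1 was not analysed here. In all 4 samples are listed, while the design text speaks of triplicates. There is thus no replicate error for the knockout, the controls carry a mean ± SD (n = 2), and a p-value reflects only how far these libraries spread, which may be technical variation. The tests share that spread across genes, so the p-value of a gene does not rest on its own controls alone. Levels are CPM, counts scaled to the size of the library, with TMM factors, a normalisation that sets the bulk of genes equal between libraries.

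Arid1a itself (ENSMUSG00000007880) was read 1258 times in the knockout, 1952 times in control 5 and 1760 times in control 6. The knockout library was below both controls, at 68.9 CPM against 120 ± 15.1, with a log2 fold change of -0.80 and an adjusted p of 0.901 in edgeR's quasi-likelihood test. The labels do not say which exons the deletion removes, so reads over the whole gene check the labels only in part. Totals of counted reads lay between 13774075 and 18608979. Over 15236 genes tested, 6 passed an adjusted p of 0.05, which is 0.0394%. The 10 microglia markers were present in every library, and their summed level was 13770 CPM in the knockout and 18758 and 26776 CPM in control 5 and control 6, with 8 of the 10 below both. Border-associated macrophage markers summed to 395, 394 and 408 CPM, in the order knockout, control 5, control 6. Mrc1 gave 243, 242 and 216 CPM of these sums. Of the 8 markers, 3 (Lyve1, Cbr2 and Folr2) lay 2-fold or more above both controls and 0 lay as far below. Of all genes in both tables, 13.2% and 6.48% did. Fibroblast and meningeal markers summed to 1.04, 5.81 and 5.34 CPM, with 9 of 14 having no row in the tables, among them Lum, Twist1 and Dpt. Mural cell markers summed to 17.7, 14.2 and 17.7 CPM, endothelial to 27.9, 46.8 and 41.8, and neural progenitor to 210, 146 and 152. The higher neural progenitor sum of the knockout library came from Vim, at 102, 36.5 and 18.4 CPM. Nes had 97.0, 97.0 and 113 CPM, and Slc1a3 3.34, 7.76 and 14.9. Of the 7 progenitor markers in both tables, 4 lay above both controls, 1 between and 2 below. Mast cell and basophil markers summed to 57.8, 1.51 and 44.8 CPM, so control 5 stood apart from the other 2 libraries, with 6 of the 8 listed markers at 0 there and 1 more without a row beside that control. A marker listed in 1 table adds nothing to the sum of the other control. Neutrophil and monocyte markers summed to 313, 282 and 197 CPM, neuron markers to 127, 152 and 181, and erythroid markers to 46.8, 38.2 and 54.0. Within the neutrophil and monocyte sum, Ngp had 63.3, 82.4 and 0.889 CPM and Ltf 40.1, 32.0 and 1.85. Control 6 thus stood apart on these genes. Ccr2, at 93.0, 120 and 138 CPM, and Mpo, at 12.1, 0 and 5.85, were higher in control 6 than in control 5. Of the 10 T and NK cell markers 1 had a row. The part of any of these in the values below was not tested unless a value is given, and in bulk RNA fewer cells of a type and less RNA per cell cannot be told apart.

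**Figure D1:**
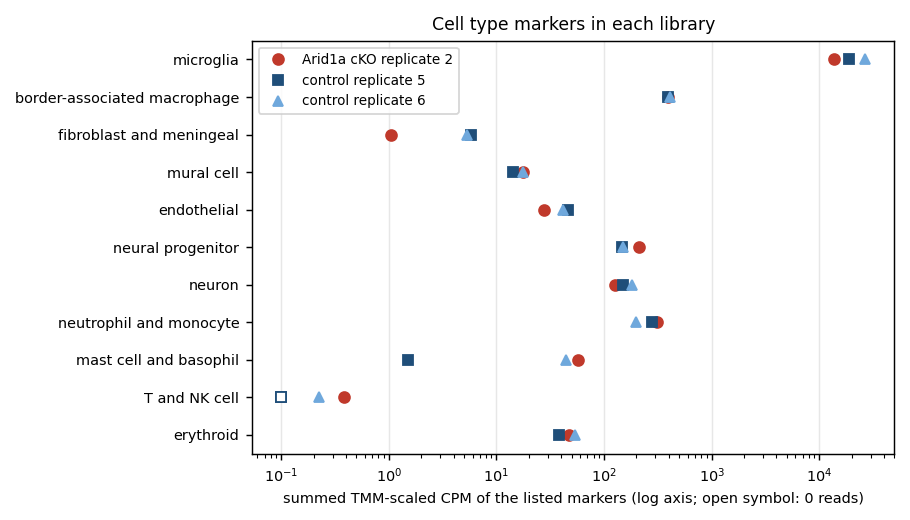
Summed TMM-scaled CPM of the listed markers of each cell type (log axis) in the knockout library and both controls; an open symbol stands for 0 reads. Microglia markers are the highest in every library, from 13770 to 26776 CPM, and mast cell and basophil markers are at 1.51 CPM in control 5 against 44.8 and 57.8 in the other 2 libraries.

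As background, the brain's matrix is rich in hyaluronan and poor in fibrillar collagen, and a basement membrane of laminins, nidogen and type IV collagen surrounds its vessels and surface. Macrophages act on matrix through secreted and membrane-bound proteases: matrix metalloproteinases held in check by TIMPs, the urokinase-plasmin pair held in check by serpins, and ADAM proteases that release proteins from the cell surface. Lysyl oxidases and transglutaminase join matrix proteins to each other, and hyaluronidases cut hyaluronan into fragments.

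The promoters of 3 genes are shown, because the results below turn on them: Hyal6, the hyaluronidase gene with the highest ratio of knockout to control level among the tested genes of the list, and Serpine2 and Plaur, which act on the same protease system and were both below both controls. The sequences are RefSeq's, on GRCm38.p6, written 5′ to 3′ on the strand of the gene. They cover up to 250 bases before the annotated start, and for Serpine2 the 31 bases next to the start, which are annotated as exon, are left out. Capitals mark 4 short motifs searched on both strands: the AP-1 site TGANTCA, the PU.1 core GAGGAA, the GC box GGGCGG and the TATA box TATAAA.
Hyal6, chr6:24732995-24733244, plus strand: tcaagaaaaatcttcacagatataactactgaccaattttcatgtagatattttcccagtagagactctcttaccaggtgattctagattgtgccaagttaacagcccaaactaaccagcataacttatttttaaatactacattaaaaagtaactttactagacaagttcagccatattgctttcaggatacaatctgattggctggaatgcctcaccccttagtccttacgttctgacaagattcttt
Serpine2, chr1:79858697-79858915, minus strand: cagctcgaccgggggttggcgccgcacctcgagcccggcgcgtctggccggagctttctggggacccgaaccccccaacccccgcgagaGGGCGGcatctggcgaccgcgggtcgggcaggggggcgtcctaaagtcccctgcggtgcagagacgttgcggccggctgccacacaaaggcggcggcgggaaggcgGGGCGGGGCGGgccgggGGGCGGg
Plaur, chr7:24462233-24462482, plus strand: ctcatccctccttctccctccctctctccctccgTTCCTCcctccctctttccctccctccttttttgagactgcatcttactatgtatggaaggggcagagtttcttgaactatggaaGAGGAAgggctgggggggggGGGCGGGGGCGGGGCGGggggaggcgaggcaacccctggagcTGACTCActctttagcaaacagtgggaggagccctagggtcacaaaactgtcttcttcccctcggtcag

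The 3 windows differ in composition. The Hyal6 window is 35.6% G and C and holds none of the 4 motifs, so it has no capitals. The Serpine2 window is 77.6% G and C and holds 4 GC boxes, which start 161, 55, 50 and 38 bases before the RefSeq start; neighbouring boxes share bases where the capitals run on. RefSeq's start of Serpine2 lies inside the deposited gene, downstream of its deposited 5′ end. The Plaur window is 59.6% G and C and holds 1 AP-1 site 69 bases before the start, 2 PU.1 cores at 216 and 131, and 3 GC boxes at 111, 105 and 100. RefSeq entries were found for 30 of the 47 genes, and for 22 of the 34 in both tables. Among those 22, the AP-1 letters stood in 4 genes, the PU.1 core in 8, the GC box in 16 and the TATA box in 2. Over the 10826 genes in both tables with an entry, the shares were 5.5%, 26.3%, 60.9% and 8.2%. A match is a description of letters in this window, and no binding was measured in these samples.

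No gene of the list passed the adjusted p threshold of 0.05 in edgeR's quasi-likelihood test; the smallest adjusted p was 0.145, for Serpine2. DESeq2's Wald test on the same counts called 5 of 34. Lox, Fn1 and Hyal6 were called higher in the knockout library, or 8.82%, against 0.402% of all genes under that test. Plaur and Serpine2 were called lower, or 5.88%, against 0.931%. The shares under DESeq2, here and for the wider list below, are of all genes in both tables. Genes that it left without an adjusted p, among them 7 of those named here, could not be called. At an unadjusted p under 0.05, 3 of 33 tested genes were higher in the knockout library, or 9.09%, against 2.46% of all genes tested. Another 4 of 33 were lower, or 12.1%, against 3.54%. The knockout library lay above both controls for 15 of the 34 genes in both tables, or 44.1%, against 41.1% of all genes in both tables, so that share is near the background. It lay below both controls for 12, or 35.3%, against 29.3%, and between them for 7. At 2-fold or more above both controls stood 7 genes (Lox, Col4a2, Lamb2, Fn1, Hyal6, Mmp9 and Plau), or 20.6% against 13.2%. At 2-fold or more below both stood 6 (Loxl3, Hyal1, Hyal3, Timp2, Plaur and Serpine2), or 17.6% against 6.48%. The median fitted log2 fold change was 0.25, beside 0.05 for all genes tested; the median log2 ratio was 0.46 over control 5 alone and near 0 (-0.00016) over control 6 alone. Genes entered the tables through their reads, so these shares do not cover the 11 genes without a row. The list was also chosen with earlier results of these data known, so the choice itself may have raised its shares. The comparisons of the list with all genes, here and below, therefore describe the chosen genes. Whether matrix and protease genes are called more often than other genes cannot be decided from them.

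**Figure D2:**
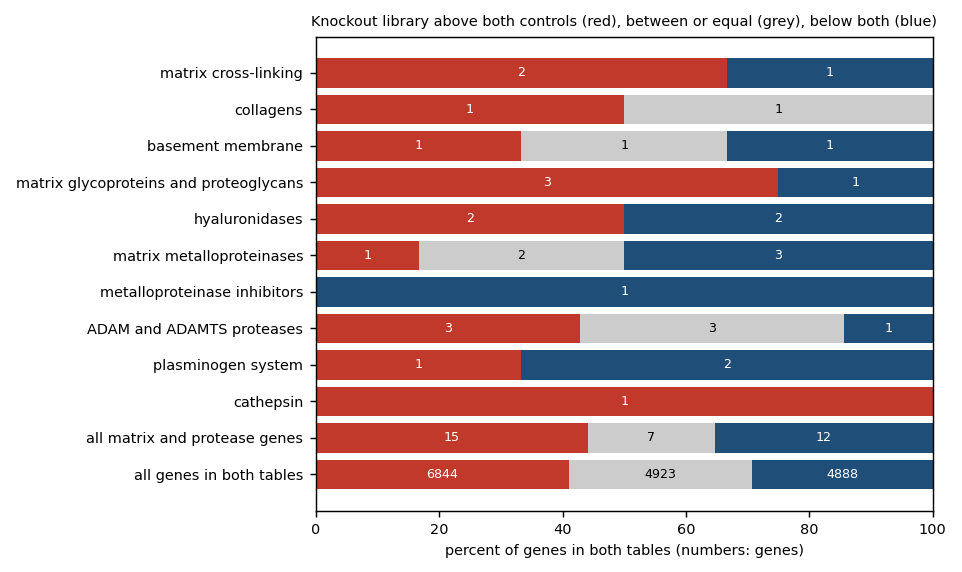
Share of the genes in both tables that lay above both controls (red), between or equal (grey) or below both (blue) in the knockout library, by role, with the number of genes written in each bar. All 34 matrix and protease genes split 15, 7 and 12, beside 6844, 4923 and 4888 of all 16655 genes; roles hold between 1 and 7 genes.

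**Figure D3:**
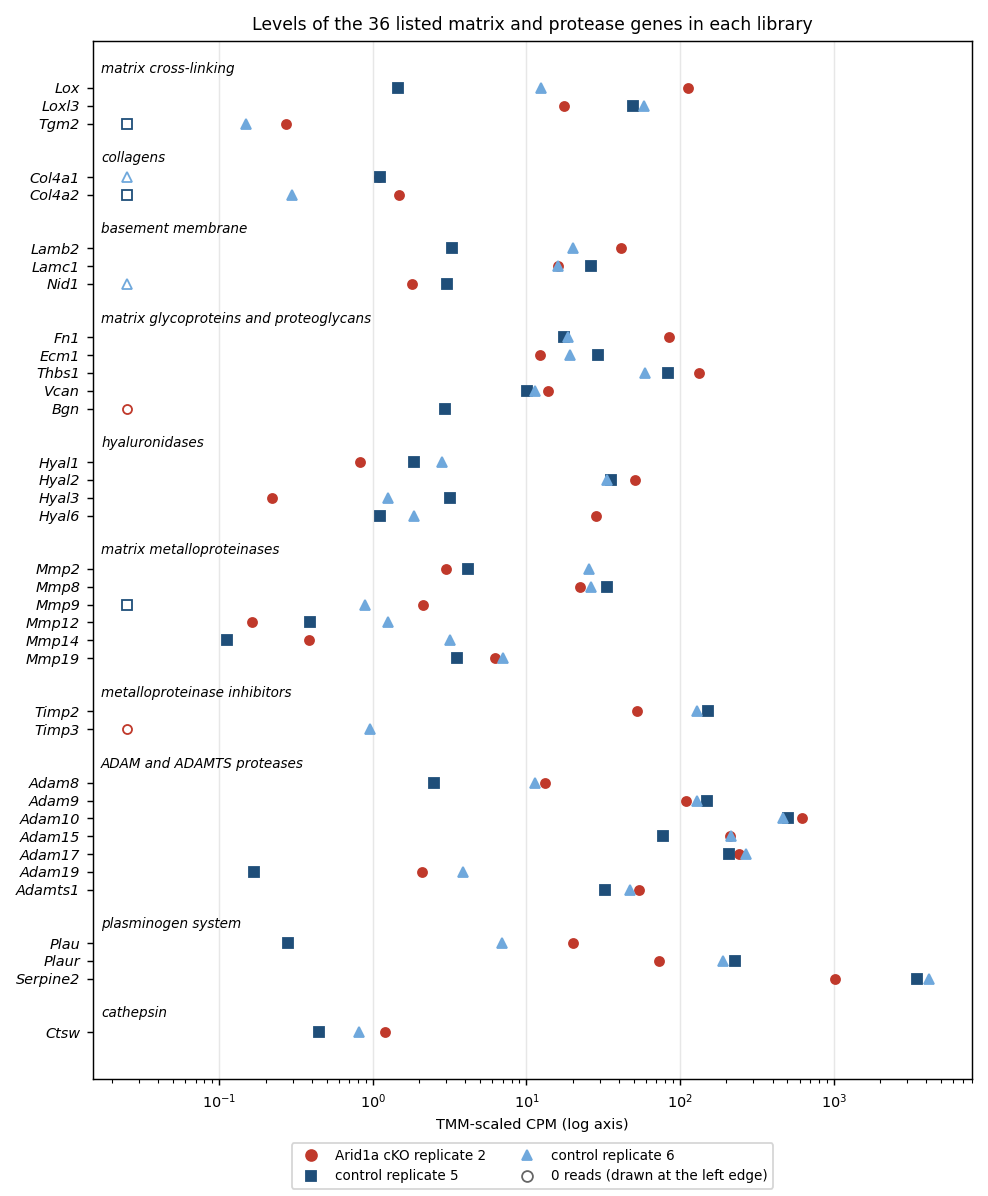
TMM-scaled CPM (log axis) of the 36 listed genes in the knockout library (red circles), control 5 (squares) and control 6 (triangles), grouped by role; open symbols at the left edge stand for 0 reads, and Bgn and Timp3 have a value for 1 control only. Serpine2 lies highest in both controls, at 3489 and 4174 CPM, and at 1015 in the knockout library, while Lox lies at 113 CPM in the knockout and at 1.45 and 12.4 in the controls.

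The controls often stood far apart on these genes. They were 2-fold or more apart for 15 of the 34, or 44.1%, against 31.2% of all genes in both tables. Control 5 was the lower of the pair for 12 of them (Lox, Tgm2, Col4a2, Lamb2, Mmp2, Mmp9, Mmp12, Mmp14, Adam8, Adam15, Adam19 and Plau), and control 6 for 3 (Col4a1, Nid1 and Hyal3). The split by direction was not counted over all genes, so it is not read as particular to this list. The mast cell and basophil marker sum, 1.51 CPM in control 5 against 44.8 in control 6, was also lower in control 5. So was the microglia marker sum, at 18758 CPM against 26776. The neutrophil and monocyte sum was higher in control 5. The fibroblast and meningeal and the endothelial sums were also higher there, but they held markers with no row beside the other control. Over the endothelial markers in both tables, the sums were 42.3 CPM in control 5 and 41.8 in control 6. The fibroblast and meningeal sum of control 5, 5.81 CPM, was Igf2 alone, which had no row beside control 6. The part of any of these sums in the values here was not tested.

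**Figure D4:**
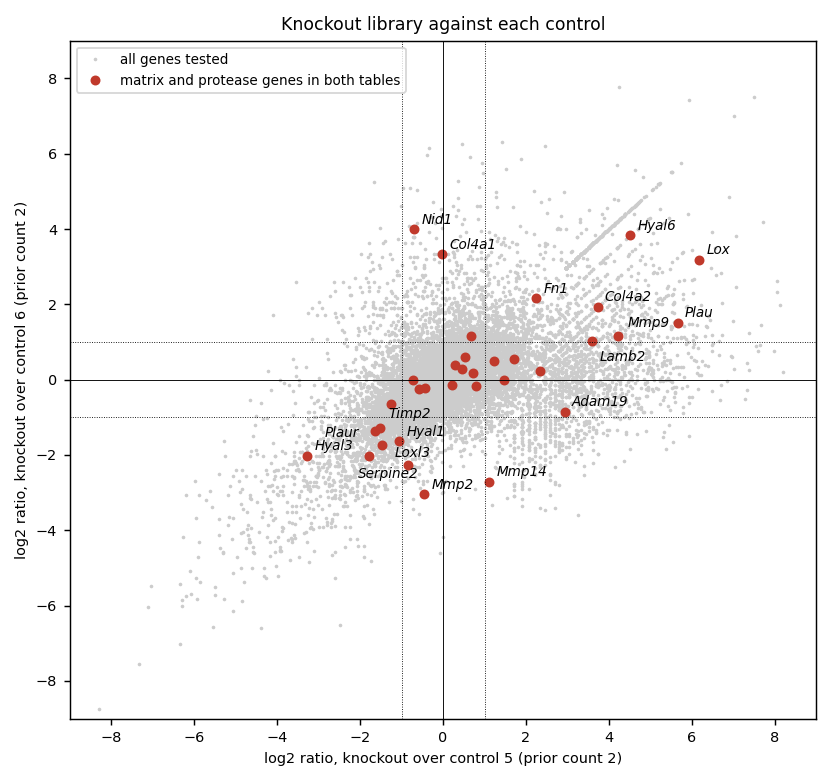
Log2 ratio of the knockout library over control 5 (horizontal) and over control 6 (vertical), with a prior count of 2, for all genes tested (grey) and the 34 genes in both tables (red); dotted lines mark 2-fold, and the grey points on a straight diagonal line are genes with 0 reads in both controls. Both axes share the knockout library. Hyal6 and Fn1 lie near the diagonal (4.51 and 3.84; 2.25 and 2.17), while Plau (5.66 and 1.51) and Mmp2 (-0.46 and -3.04) differ by control.

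Of the lysyl oxidases, which oxidise lysine side chains so that collagen and elastin can be cross-linked, Lox was above both controls and Loxl3 below both. Lox (ENSMUSG00000024529, chromosome 18, minus strand) was read 2069 times in the knockout, 26 times in control 5 and 167 times in control 6, or 113, 1.45 and 12.4 CPM. The knockout library was high and the controls, at 6.91 ± 7.72 CPM, were 2-fold or more apart. The fitted log2 fold change was 4.05 (SE 0.94, adjusted p = 0.327, edgeR quasi-likelihood test), with 6.17 over control 5 alone and 3.18 over control 6 alone. On a scale per kilobase of exon (RPKM), Lox ranked 21 of 34 genes by the mean of the controls, at 1.45 RPKM, and 7 in the knockout library, at 23.7 RPKM. Loxl3 (ENSMUSG00000000693, chromosome 6, 83034173 to 83052562, plus strand), a second member of the family, had 322, 880 and 790 reads, or 17.6, 49.2 and 58.5 CPM in the order knockout, control 5, control 6. The controls lay close together and the knockout library below both (log2 fold change -1.61, SE 0.50, adjusted p = 0.582). The kit does not mark strand, and 11.6% of its exon bases overlap Htra2 on the other strand, so reads there cannot be told apart. Tgm2, tissue transglutaminase, had 5, 0 and 2 reads and was not tested. Loxl1 and Loxl2 had no row in the tables.

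Collagen reads were few. Of the type IV chains, the network-forming collagens of basement membranes, Col4a1 was read 20 times in the knockout, 20 times in control 5 and 0 times in control 6. Its partner chain Col4a2, which is transcribed from a shared promoter region in the opposite direction, had 27, 0 and 4 reads. The 2 genes did not share a pattern: the knockout library was level with control 5 for Col4a1 and above both controls for Col4a2, all at or under 1.48 CPM. The fibrillar collagens Col1a1, Col1a2, Col3a1 and Col5a1 had no row. Neither did Hspg2, which encodes the basement membrane proteoglycan perlecan, nor Dcn, which encodes the small proteoglycan decorin of collagen fibrils. Fibroblast and meningeal markers were also low, at most 5.81 CPM summed in any library.

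Among basement membrane proteins, Lamb2, the laminin beta-2 chain, was read 749 times in the knockout, 59 times in control 5 and 273 times in control 6, or 41.0, 3.30 and 20.2 CPM. The knockout library was the highest, but the controls differed from each other more than the knockout library from control 6 (log2 ratios 3.59 over control 5 and 1.02 over control 6; adjusted p = 0.890). Lamc1, the gamma-1 chain that most laminins contain, had 15.9, 26.3 and 15.9 CPM, so the knockout library was level with control 6; it is 1 of the 12 genes counted as below both. Nid1, nidogen, which links laminin to type IV collagen, had 33, 54 and 0 reads. The 3 genes thus took 3 different orders of the libraries.

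Fibronectin was the matrix glycoprotein of those in both tables that lay furthest from the controls. Fn1 (ENSMUSG00000026193, chromosome 1, 71585520 to 71653200, minus strand), whose product is a large adhesive protein bound by integrins, was read 1539 times in the knockout, 315 times in control 5 and 252 times in control 6. That is 84.3 CPM against 17.6 and 18.7, with the controls almost equal at 18.1 ± 0.763. The log2 fold change was 2.22 (SE 0.44, unadjusted p 0.00105, adjusted p = 0.212, edgeR), and the knockout level was 4.65 times the control mean. Thbs1, thrombospondin-1, a matrix protein that activates latent TGF-beta, had 133, 83.2 and 59.4 CPM, above both controls (log2 fold change 0.89, adjusted p = 0.855). Ecm1, extracellular matrix protein 1, had 12.2, 29.2 and 19.3 CPM, below both, with 223, 523 and 260 reads. Vcan, the hyaluronan-binding proteoglycan versican, lay between 10.1 and 13.9 CPM in all 3 libraries. Bgn, biglycan, was listed only beside control 5, with 0 reads in the knockout library and 53 in that control. At a floor of 3 reads for the knockout, that is at least 18.0-fold lower than control 5, with its count taken as it stands. Its level in control 6 is not known, so it cannot be said whether the knockout library was below both controls.

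Of the 4 hyaluronidases, which cut hyaluronan, Hyal6 and Hyal2 lay above both controls and Hyal1 and Hyal3 below both. Hyal6 (ENSMUSG00000029679, chromosome 6, 24733245 to 24745452, plus strand) was read 514 times in the knockout, 20 times in control 5 and 25 times in control 6, or 28.1, 1.12 and 1.85 CPM. The controls were close, at 1.49 ± 0.520 CPM, and the knockout library was 18.9 times their mean (log2 fold change 4.24, SE 0.76, unadjusted p 0.000505, adjusted p = 0.148, edgeR). Hyal2, the widely expressed GPI-anchored hyaluronidase, had 51.1 CPM in the knockout library against 35.5 and 33.6 (log2 fold change 0.57, adjusted p = 1.00). Hyal1, the lysosomal enzyme, had 15, 33 and 38 reads, below both controls, but 51.9% of its exon bases overlap Hyal3 and Naa80 on the same strand. Hyal3 had 4, 57 and 17 reads, also below both. Reads in the overlaps cannot be given to 1 gene, so the low counts of Hyal1 and Hyal3 are uncertain.

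Hyal6 lies in a cluster of 4 hyaluronidase genes that spans 158.7 kb on chromosome 6, with Hyal4, Spam1 and Hyal5. Hyal4 was read 754 times in the knockout, 93 times in control 5 and 33 times in control 6 (log2 fold change 3.43, SE 0.68, adjusted p = 0.212, edgeR). Hyal5 had 325, 7 and 86 reads, and Spam1, whose product is the sperm surface hyaluronidase PH-20, had 51, 19 and 0. All 4 lay above both controls, with summed reads of 1644 against 139 and 144. These genes are paralogs, and how the counting placed reads that match more than 1 of them is not given in the sources used here, so their values are uncertain. The next 2 listed genes, the small nucleolar RNA gene Gm22267 (98, 0 and 26 reads) and Tmem229a (135, 37 and 8), were also above both controls. On the other side of the cluster, Wasl had 440, 568 and 292 reads, between the controls, and Gm42856 had 310, 587 and 409, below both. Ndufa5, further out on that side, had 171, 102 and 73 reads, above both. Of all genes in both tables, 41.1% lay above both controls. In the chromosome 9 cluster, Hyal2 was above both controls, and Nat6 (Naa80), between Hyal1 and Hyal3, was between them, with 92, 168 and 61 reads.

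**Figure D5:**
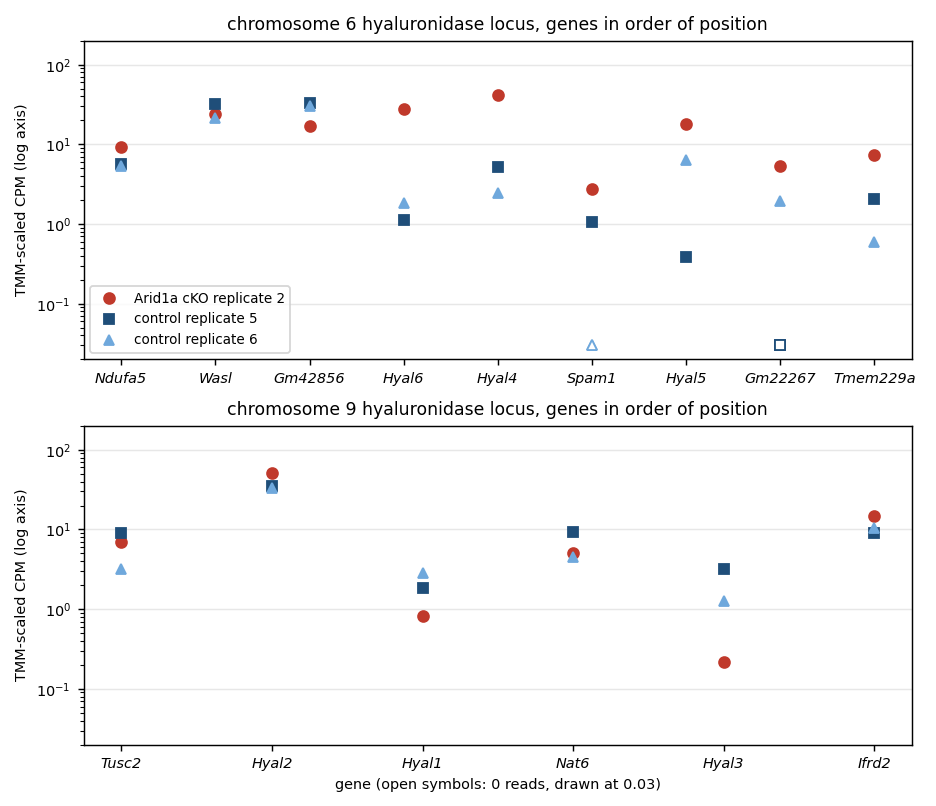
TMM-scaled CPM (log axis) of the hyaluronidase genes and their listed neighbours on chromosomes 6 and 9, in order of position; open symbols stand for 0 reads. On chromosome 6 every gene from Hyal6 to Tmem229a lies above both controls in the knockout library (Hyal6 at 28.1 CPM against 1.12 and 1.85). On the other side Wasl lies between the controls, Gm42856 below both and Ndufa5 above both. On chromosome 9, Hyal2 lies above both and Hyal1 and Hyal3 below.

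The matrix metalloproteinases were low, and none had an unadjusted p under 0.05. Mmp8, neutrophil collagenase, was the most abundant by the control mean per length, at 12.3 RPKM, and had 22.2 CPM in the knockout library against 33.4 and 26.4. Mmp2, gelatinase A, had 55, 75 and 346 reads, so control 6 stood apart and the knockout library was near control 5. Mmp9, gelatinase B, had 39, 0 and 12 reads. Mmp19 had 114, 63 and 95 reads, between the controls, with 28.3% of its exon bases under genes on the other strand. Mmp12, macrophage elastase, and Mmp14, the membrane-bound activator of pro-Mmp2, had at most 43 reads in any library. Across the 6 listed genes, 1 was above both controls, 2 between and 3 below. Mmp13, a collagenase, had no row.

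Of the inhibitors, Timp2 (ENSMUSG00000017466, chromosome 11, 118301069 to 118355740, minus strand), which inhibits metalloproteinases and also takes part in the activation of pro-Mmp2 by Mmp14, was read 952 times in the knockout, 2702 times in control 5 and 1731 times in control 6. This was 52.1 CPM against 151 and 128, with the knockout library below both and the controls at 140 ± 16.0. The log2 fold change was -1.42 (SE 0.41, unadjusted p 0.00901, adjusted p = 0.542, edgeR). Timp3, the inhibitor that binds to matrix, was listed only beside control 6, with 0 reads in the knockout library and 13 in that control. At a floor of 3 reads for the knockout, that is at least 5.87-fold lower than control 6, with its count taken as it stands. The level of Timp3 in control 5 is not known. Timp3 overlaps Syn3 on the other strand over 21.3% of its exon bases. Timp1 had no row, so Timp2 carried nearly all TIMP reads of the list.

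None of the ADAM proteases, which cut proteins at the cell surface, was 2-fold or more from both controls. Adam10, the main constitutive sheddase of many surface proteins, had 620 CPM in the knockout library against 505 and 470, or 11320, 9043 and 6340 reads (log2 fold change 0.35, SE 0.33, adjusted p = 1.00). Adam17, the enzyme that releases TNF, had 243 CPM, between 209 and 267. Adam15 had 212, 77.1 and 213 CPM, so control 5 stood apart and the knockout library was level with control 6; 20.6% of its exon bases overlap a gene on the other strand. Adam9 had 110, 150 and 128 CPM. Adam8, a myeloid member of the family, had 13.2, 2.51 and 11.3 CPM, and Adam19 2.08, 0.168 and 3.85. Adamts1, which cuts versican and other proteoglycans, had 53.7, 32.5 and 47.4 CPM. Of these 7 genes 3 lay above both controls, 3 between and 1 below. Adamts4 had no row.

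The plasminogen system held the most abundant gene of the list. Serpine2 (ENSMUSG00000026249, chromosome 1, 79794197 to 79861180, minus strand) encodes protease nexin-1, a serpin that inhibits thrombin, urokinase and plasmin. It was read 18548 times in the knockout, 62466 times in control 5 and 56328 times in control 6, or 1015, 3489 and 4174 CPM. The knockout library was far below both controls, which lay at 3832 ± 484. The log2 fold change was -1.92 (SE 0.33, unadjusted p 0.000434, adjusted p = 0.145, edgeR), and the control mean was 3.77 times the knockout level. By reads, Serpine2 ranked 22 and 11 among all genes in the controls and 99 in the knockout library, and it took 0.336%, 0.409% and 0.107% of all counted reads. The summed microglia markers were also lower in the knockout library, at 13770 CPM against 18758 and 26776; their part in this value was not tested.

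Plaur (ENSMUSG00000046223, chromosome 7, 24462484 to 24475968, plus strand), the urokinase receptor that holds the protease at the cell surface, was read 1330 times in the knockout, 4087 times in control 5 and 2555 times in control 6. The knockout library, at 72.8 CPM, was below both controls, at 228 and 189 (log2 fold change -1.52, SE 0.40, unadjusted p 0.00533, adjusted p = 0.435, edgeR). Plau, urokinase itself, had 366, 5 and 94 reads, and was above both controls, which were 2-fold or more apart (log2 fold change 2.47, SE 1.35, adjusted p = 0.931; 5.66 over control 5 and 1.51 over control 6). The protease thus read above both controls, and its receptor and the serpin below both. Ctsw, a cathepsin known from cytotoxic lymphocytes, had 22, 8 and 11 reads.

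Per kilobase of exon, the order of the listed genes in the controls began with Serpine2 at 462 RPKM, Adam10 at 99.2 and Plaur at 79.8. Timp2 (35.8 RPKM), Adam9 (33.8) and Adam17 (33.2) followed and were within their spread of each other, and Adam15 had 23.6. In the knockout library Adam10 (126 RPKM) and Serpine2 (123) led, followed by Adam15 (34.5), Adam17 (34.0), Plaur (27.8) and Adam9 (26.7). Serpine2 took 34.3% of the reads of all genes on the list in the knockout, beside 67.7% in control 5 and 70.0% in control 6. The summed level of the list was 516 RPKM in the knockout library against 807 and 897. Without Serpine2 it was 393 against 386 and 393, within the range of the controls on this scale. In summed CPM, the list without Serpine2 had 1949 in the knockout library against 1663 and 1786, above both controls.

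In the authors' deposited tables, which test the knockout library against each control in turn, genes with a p under 0.01 and a change over 3-fold were marked. Both tables mark Lox, Col4a2, Fn1, Hyal6 and Plau as higher and Hyal3 and Serpine2 as lower; of all genes in both tables, 7.61% are marked as higher in both and 2.94% as lower in both. The authors' deposited tables mark 21 of the 36 listed genes, or 58.3%, in at least 1 table, against 35.3% of all genes in either table. The tables share the knockout library, so the marks are not independent. The choice of the list with earlier results known limits these shares as well.

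A wider list of 187 matrix and protease genes outside the 47 held 101 tested genes, of which none passed the adjusted threshold in edgeR; 10 were higher (9.9%, against 2.46% of all genes tested) and 9 lower (8.91%, against 3.54%) at an unadjusted p under 0.05. Among the 110 in both tables, 60 lay above both controls, or 54.5%, and 25 below, or 22.7%, against 41.1% and 29.3% of all genes. The median log2 fold change was 0.41, with a median ratio of 0.94 over control 5 alone and 0.26 over control 6 alone. A gene with 0 reads in both controls was listed only through its knockout reads, so it had to count as above both. Eln (5, 0 and 0 reads), Lama4 (50, 0 and 0) and others of the wider list are of this kind. The share over all genes holds such genes too. The wider list was likewise chosen with earlier results of these data known, so its shares describe the chosen genes only. DESeq2's Wald test called 5 of the 110: Hyal4, Cst3 and Hpse as higher (2.73%, against 0.402% of all genes) and Col27a1 and Ctsh as lower (1.82%, against 0.931%). Col27a1, a fibrillar collagen chain, was read 19 times in the knockout and 274 and 298 times in the controls (log2 fold change -4.16, SE 0.87, adjusted p = 0.249, edgeR). Cst3, cystatin C, a secreted inhibitor of cysteine cathepsins, had 14764, 5918 and 3600 reads, or 808 CPM against 331 and 267, above both controls (adjusted p = 0.332). Hpse, heparanase, which cuts heparan sulphate chains, had 121 CPM against 30.7 and 29.3, with the controls level (log2 fold change 2.01, adjusted p = 0.212). Emilin2, an elastin-associated glycoprotein, had 126 CPM against 32.7 and 55.3. Below both controls were Serpinf1, pigment epithelium-derived factor, a serpin without inhibitory activity (3.61 CPM against 18.5 and 26.8), Ctsh, the aminopeptidase cathepsin H (22.6 against 78.5 and 72.5), and Adam22, an ADAM without protease activity (3.45 against 19.0 and 16.1). By group, the other ADAM and ADAMTS proteases had 9 of 12 genes above both controls and 2 below. Collagens had 8 of 12 above and 1 below, basement membrane 5 of 8 and 0, and glycoproteins and proteoglycans 11 of 19 and 4. Hyaluronan and heparan sulphate turnover had 5 of 9 and 4, and cross-linking and collagen processing 5 of 14 and 2. Metalloproteinases and inhibitors had 4 of 7 and 1, and the plasminogen system and serpins 8 of 14 and 2. The other cathepsins and cystatins had 5 of 15 above and 9 below. Some of these genes had few reads, such as Adamts18 with 5, 0 and 0.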

How the data were processed

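The 47 genes and the gene lists were chosen with earlier results of these data known. The submitters' processing notes name HTSeq 0.6.0, TopHat2 2.0.12 and Bowtie2 2.2.3 with the build mm9. Of the IDs shared with GENCODE M21, however, 89.9% stood at the identical GRCm38 position, so positions are given on GRCm38 as deposited. The authors deposited 2 tables, each with raw read counts of knockout replicate 2 and 1 control, and the authors' log2 fold changes and p-values, whose test is not given in the sources used here. Knockout counts were identical in both tables for all 16655 shared genes; 574 and 1297 genes stood in 1 table only, with at most 4 knockout reads.

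Counts of shared genes were tested with edgeR 4.0.16 in R 4.3.3 (filterByExpr, TMM factors 1.059, 0.963 and 0.981, quasi-likelihood F test, two-sided, Benjamini-Hochberg adjustment over 15236 genes). Only the pair of controls gives a residual degree of freedom (1), which the fit applies to the knockout as well. The common dispersion was 0.438, and the fit moderates the dispersion of each gene by that of the other genes. An SE is the fold change divided by the root of its F value. Library ratios used a prior count of 2, and RPKM used the union exon length of GENCODE M21. A single read was worth 0.0547 to 0.0741 CPM. Floors and bounds hold for counting error alone, as PCR copies of a molecule are not independent, and they leave out the counting error of the control. Values in every library are given for genes with 20 or more reads in a library that lay 2-fold or more above or below both controls or had an unadjusted p under 0.05, for every lysyl oxidase, hyaluronidase and TIMP, and for the 3 most abundant per role; of the other matrix genes, up to 4 per direction with the smallest p at 5 CPM or more. Alternatives were DESeq2 1.42.0 (its size factors, and its Wald test with independent filtering set for the 0.05 threshold, a setting chosen after a first count at the default was seen), upper-quartile factors, other filters, genes in either table, and leaving out each control. Knockout replicate 1 was not analysed here.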

Additional observations from a re-analysis of the deposited data

How the results depend on the processing

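Of all genes, 6 passed with TMM factors, 0 with DESeq2 size factors, 0 with upper-quartile factors, 0 without a low-count filter, 0 with a minimum of 1 CPM in 2 libraries, 10 with genes in either table and 222 with DESeq2's Wald test; at an unadjusted p under 0.05 these fits gave 914, 895, 818, 948, 783, 906 and 980 genes. Of the matrix and protease genes none passed in any edgeR fit, where the smallest adjusted p ran from 0.107 to 0.357. With DESeq2's Wald test 5 passed: Lox (adjusted p = 0.000694), Fn1 (0.0119) and Hyal6 (0.00448) higher, and Plaur (0.0159) and Serpine2 (3.98e-06) lower. Of the values of the 26 tested genes named by the rule under 6 alternatives with a test, 141 kept their direction and side of the threshold and these 5 passed. DESeq2 gave no adjusted p for 7 others, which kept their direction. Without control 5 the log2 fold change of Lox was 3.18, and without control 6 it was 6.17. The median of the list was near 0 (-0.00016) and 0.46. These settings gave no test and are not among the 6 alternatives. Without control 5, Adam15 (0.549 to -0.00633), Adam17 (0.0316 to -0.136) and Mmp19 (0.243 to -0.171) changed sign against the main fit. Without control 6, Col4a1 (0.949 to -0.0262) and Nid1 (0.253 to -0.703) did. The other tested genes named by the rule kept their direction. No paired analysis was possible because the knockout and control replicate numbers are not shared.

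With 1 knockout library, no value here separates the deletion from that library. A count of 0 leaves up to 3 reads possible in a library, and some genes with few knockout reads are missing from the shared set, which holds 657 genes with 4 or fewer.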
